A study of Mus musculus with 21 samples.

Results

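The colony stimulating factor genes are described here across a facial nerve injury in mice: the ligand genes Csf1 and Il34 and the receptor genes Csf1r, Csf2ra, Csf2rb and Csf3r. These 6 genes were taken by symbol from the 45664 rows of a table of raw read counts, and all 6 were among the 22294 genes that passed a filter on low counts and were tested. Messenger RNA came from 21 libraries of female C57BL/6 mice, from a block of ventral pons with the facial nucleus, where the cell bodies of the facial nerve lie, and with reticular and spinal trigeminal tissue next to it. All 7 groups of 3 libraries carried the CX3CR1GFP/wt genotype, in which green fluorescent protein replaces 1 copy of the microglial receptor gene Cx3cr1, so no group shows these genes without that change. The groups were the lesion (right) pons and the contralateral (left) pons of mice that had the right facial nerve severed when 8 weeks old and were killed 7, 14 or 30 days later, at 9, 10 and 12 weeks, and the left pons of unoperated mice at 8 weeks (day 0). Lesion and body side were not varied separately, and age changed with the day, so neither side nor age can be told apart from the groups. The lane label in the file headers was the same at days 0 and 7 and differed at days 14 and 30, where it cannot be told apart from the day. Some index sequences in the headers, which mark single libraries, occur at both day 0 and day 7. Libraries with the same index and the same lane label could not be separated within 1 run. By their headers, those libraries of day 0 and day 7 were thus sequenced in separate runs, despite the shared lane label.

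CSF1 and IL-34 are the ligands of the receptor CSF1R, a tyrosine kinase on microglia and other macrophages that these cells need to survive and divide. CSF2RA binds GM-CSF and pairs with the shared subunit CSF2RB, which in mice also serves IL-5 and IL-3, while CSF3R binds G-CSF and is best known from neutrophils. CSF2RB and CSF3R have no kinase of their own and signal through JAK kinases and STAT factors. After a cranial nerve is cut outside the brain, the microglia around the injured motor neurons multiply, and CSF1 made by axotomised motor neurons is known to drive such a response in the spinal cord.

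Libraries held 17358868 to 29827291 counts in operated mice and 35874913 to 41448945 at day 0, and mitochondrial transcripts made up 2.81% to 7.29% of them. The injury marker Atf3 stood at 10.1 to 96.0 CPM (counts scaled to the TMM-adjusted library total) in the 9 lesion libraries and at 0.994 to 1.86 CPM in the 12 others, and Sprr1a at 35.1 to 295 CPM and 0.155 to 1.06 CPM. Both followed the labelled sides, also at day 30, where the side letters of the count columns run opposite to the sample descriptions and the descriptions were followed. Day 7 lesion replicate 3 stood apart in the choroid plexus gene Ttr, with 4353 CPM against 3.61 to 878 CPM in the others. Labels do not say that the libraries of a group came from separate animals, so p-values cover the spread between these libraries.

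Csf1, Csf1r and Csf3r were higher in the lesion pons than in the contralateral pons, Csf1 at days 7 and 14 and both receptor genes on all 3 days. Csf2rb was called at days 14 and 30 and Il34 at day 14, while Csf2ra was called on none of the 3 days. Called means an adjusted p under 0.05 in edgeR's quasi-likelihood test with Benjamini-Hochberg adjustment over all 22294 genes. By this rule 3 of 6 members were higher at day 7, where 1.56% of all tested genes were called higher, 5 of 6 at day 14 (2.58% of all genes) and 3 of 6 at day 30 (1.04%). No member was called lower, against 0.0942%, 1.31% and 0.121% of all genes at days 7, 14 and 30. The 3 lesion libraries all lay above the 3 contralateral ones for 4 members at day 7, 5 at day 14 and 4 at day 30, against 7.26%, 10.7% and 9.71% of all tested genes. The median log2 difference of the 6 members was 0.66, 0.62 and 0.43 at days 7, 14 and 30, and that of all tested genes was -0.01, 0.00 and 0.00.

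**Figure D1:**
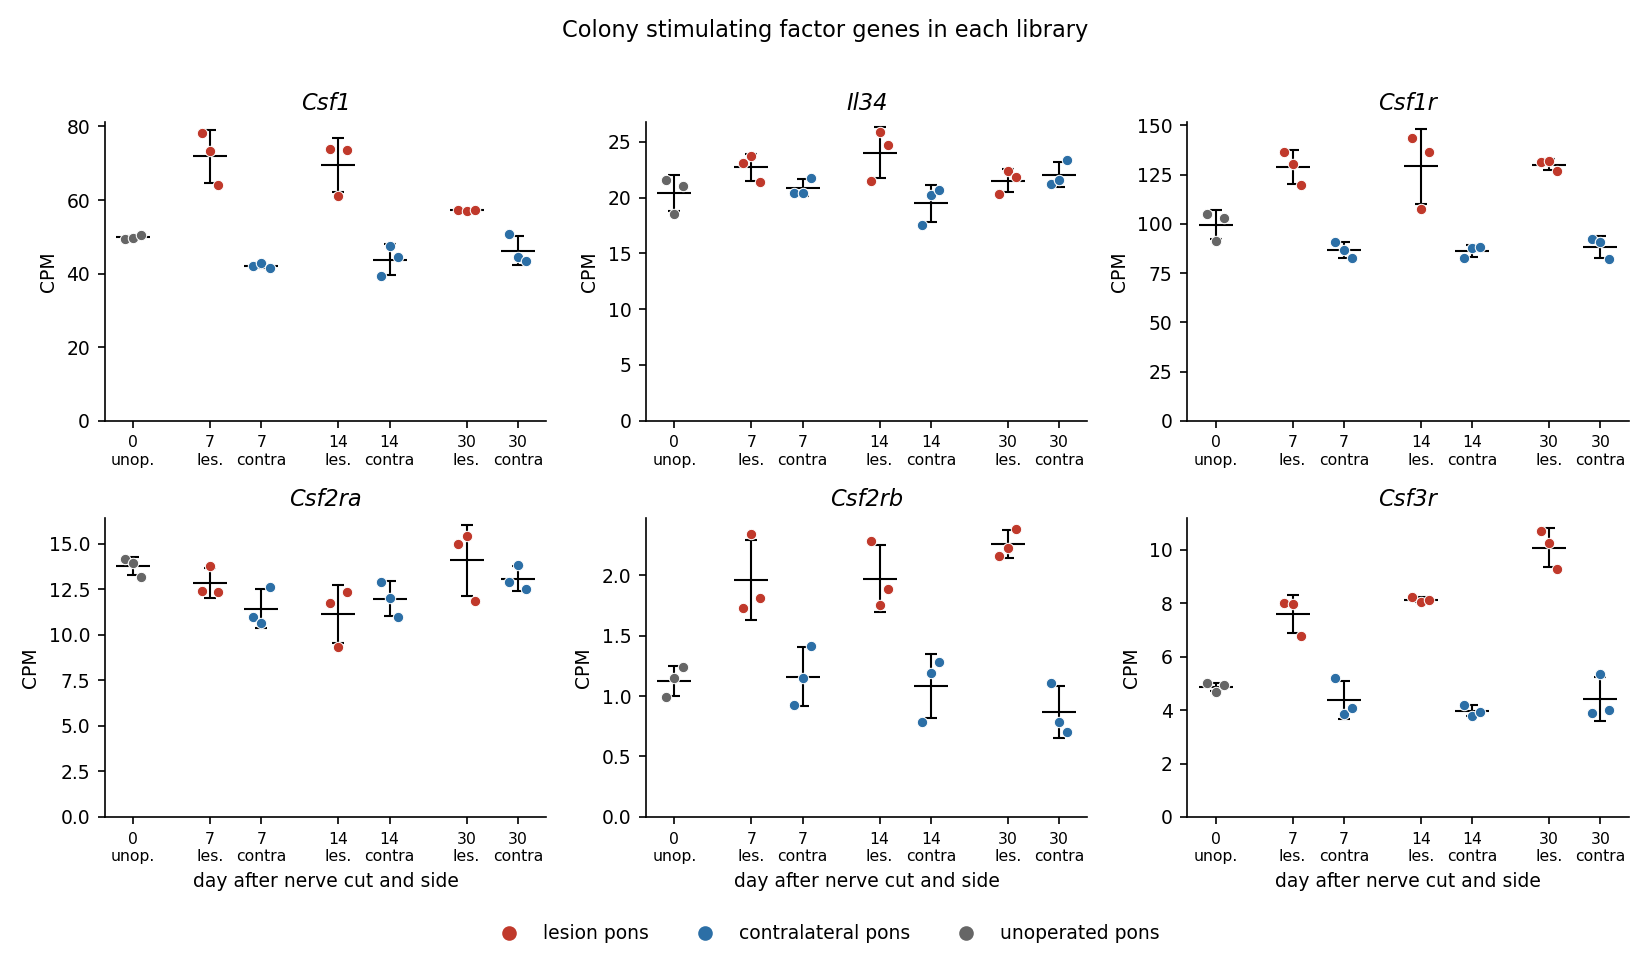
Level in CPM (vertical axes from 0) of each member in each of the 21 libraries, by day and side; points are libraries, and black bars are the mean and SD of 3 libraries. Lesion libraries of Csf1r lie between 108 and 143 CPM and contralateral ones between 82.1 and 92.5 CPM, while the sides of Csf2ra overlap on every day.

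In the plot of CPM by library, Csf1, Csf1r, Csf2rb and Csf3r each have all 9 lesion libraries above all 9 contralateral ones. The share of all tested genes with this separation was not counted. Il34 and Csf2ra overlap between sides over the 3 days: Il34 ran from 20.4 to 25.9 CPM in lesion libraries and from 17.6 to 23.3 CPM in contralateral ones, and Csf2ra from 9.34 to 15.4 CPM and from 10.7 to 13.8 CPM.

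**Figure D2:**
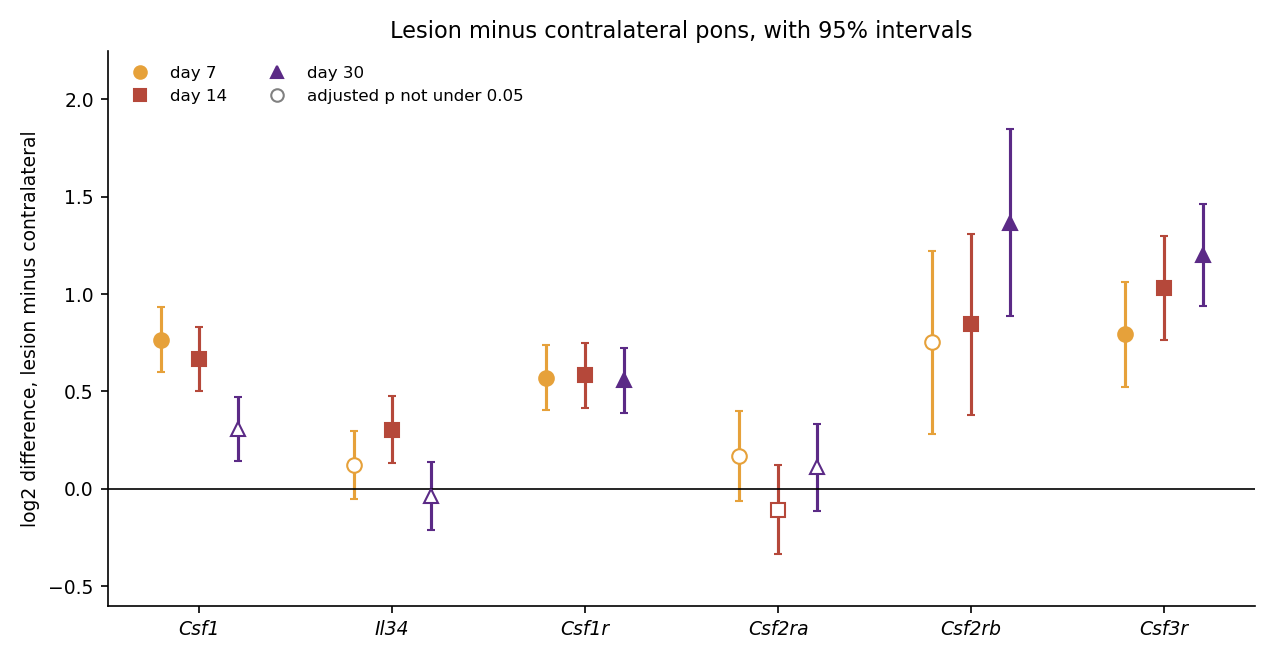
Log2 difference (vertical axis) of each member, lesion minus contralateral pons, at days 7, 14 and 30, with 95% intervals derived from edgeR's quasi-likelihood F statistic. Filled symbols passed the adjusted p of 0.05. Csf1 has its smallest estimate at day 30 (0.31) and Csf3r its largest (1.20), while Csf1r stays between 0.56 and 0.58.

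The plot of lesion differences sets the members side by side. The intervals of Csf1 at day 30 and of Csf2rb at day 7 lie above 0 without passing the adjusted test, and those of Csf2ra include 0 on all 3 days.

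Csf1 encodes the secreted cytokine first known as macrophage colony stimulating factor (GRCm38 chr3:107741048-107760469, minus strand). At day 7 it had 78.3, 73.4 and 64.0 CPM in the lesion pons, against 42.2, 42.9 and 41.5 CPM in the contralateral pons. All 3 lesion libraries were higher, and the log2 difference was 0.77 ± 0.08 (SE; adjusted p = 4.52e-07). At day 14 the lesion libraries had 73.8, 61.1 and 73.7 CPM and the contralateral ones 39.3, 47.6 and 44.6 CPM. The sides did not overlap, with a log2 difference of 0.66 ± 0.08 (adjusted p = 2.92e-06). At day 30 the lesion libraries had 57.4, 57.1 and 57.4 CPM and the contralateral ones 50.7, 44.5 and 43.5 CPM. The lesion libraries were again all higher, but the log2 difference of 0.31 ± 0.08 missed the threshold (adjusted p = 0.0585). That day 30 call depends on the analysis: the adjusted p was 0.0367 by DESeq2, 0.00326 with no filter on low counts, 0.0018 in a fit on the compared pair alone and 0.031 without contralateral replicate 1.

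By mean CPM, the 7 groups of Csf1 ran in the order day 7 lesion (71.9 ± 7.27, SD, n = 3 here and below), day 14 lesion (69.5 ± 7.31), day 30 lesion (57.3 ± 0.206), day 0 unoperated (49.9 ± 0.467), and then the contralateral pons at days 30, 14 and 7 (46.2 ± 3.91, 43.8 ± 4.21 and 42.2 ± 0.716). The first pair in this order overlap in their libraries, the day 30 lesion libraries lie below both earlier lesion groups and above day 0, and each later neighbour overlaps the next. The change of the lesion effect between days was tested as an interaction. For Csf1 it was -0.46 ± 0.11 for day 30 minus day 7 (adjusted p = 0.302) and -0.36 ± 0.11 for day 30 minus day 14 (adjusted p = 0.173). Neither passed the adjusted threshold, and only the first did so under any alternative, with no filter on low counts (adjusted p = 0.0186).

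Il34 encodes the other CSF1R ligand, which neurons and skin make in health (chr8:110741829-110805924, minus strand), with 97 exon bases opposite Gm15894 and Gm15895. It had 23.1, 23.7 and 21.4 CPM in the lesion pons at day 7, against 20.4, 20.4 and 21.8 CPM in the contralateral pons. At day 14 it had 21.5, 25.9 and 24.7 CPM against 17.6, 20.2 and 20.6 CPM, and at day 30 it had 20.4, 22.3 and 21.8 CPM against 21.2, 21.6 and 23.3 CPM. The sides did not overlap at day 14 and overlapped at days 7 and 30. The log2 differences were 0.12 ± 0.09 (adjusted p = 0.934), 0.30 ± 0.08 (0.0396) and -0.04 ± 0.08 (0.959) on days 7, 14 and 30. The day 14 call was lost in the deposited log2 matrix (adjusted p = 0.0842), in a fit on the compared pair alone (0.171), and without lesion replicate 2 (0.238), lesion replicate 3 (0.1) or contralateral replicate 1, 2 or 3 (0.171, 0.0819 and 0.0565). At days 7 and 30 the 95% intervals were -0.05 to 0.30 and -0.21 to 0.14. In the order of the 7 group means, from 24.0 ± 2.30 CPM (day 14 lesion) to 19.5 ± 1.68 CPM (day 14 contralateral), every neighbouring pair of groups overlapped.

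Levels of different genes can be set beside each other only per gene length, as CPM per kilobase (RPKM, from the gene lengths in the deposited table). Averaged over 21 libraries, Csf1r stood at 21.9 RPKM, Il34 at 11.02, Csf1 at 10.3, Csf2ra at 6.83, Csf3r at 1.72 and Csf2rb at 0.313 RPKM. The RPKM of Csf1 divided by that of Il34 was 1.17 ± 0.0748 in the lesion pons and 0.751 ± 0.0384 in the contralateral pons at day 7. At day 14 it was 1.09 ± 0.201 against 0.834 ± 0.0358, and at day 30 it was 0.989 ± 0.0506 against 0.781 ± 0.0981. In unoperated pons the ratio was 0.910 ± 0.0750. Csf1 thus exceeded Il34 in mean RPKM only in the lesion pons at days 7 and 14. Lesion and contralateral ratios did not overlap on any day, the closest being 0.875 in the lowest lesion library and 0.872 in the highest contralateral one at day 14. With 3 libraries a side, no exact test of the ratio can give a p below 0.1.

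**Figure D3:**
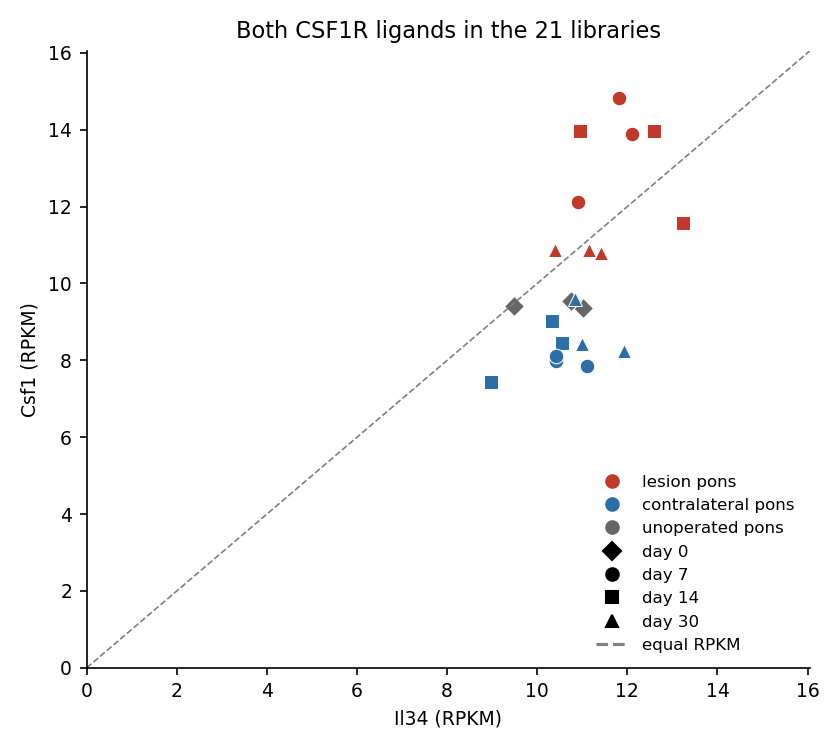
Csf1 (vertical axis) against Il34 (horizontal axis), both in RPKM, in the 21 libraries, with day given by symbol and side by colour; the dashed line marks equal RPKM. The 3 lesion libraries of day 7 lie above the line and all 9 contralateral libraries lie below it.

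In the plot of both ligands the libraries spread mainly along the Csf1 axis, from 7.44 to 14.8 RPKM, and less along the Il34 axis, from 8.97 to 13.2 RPKM. Of the lesion libraries, replicate 2 of day 14 and replicates 2 and 3 of day 30 lie below the line of equal RPKM.

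Csf1r encodes the receptor of both ligands (chr18:61100598-61132149, plus strand). It had 137, 131 and 120 CPM in the lesion pons at day 7, against 91.0, 86.8 and 82.6 CPM in the contralateral pons. At day 14 it had 143, 108 and 137 CPM against 82.5, 87.8 and 88.3 CPM, and at day 30 it had 132, 132 and 127 CPM against 92.5, 90.8 and 82.1 CPM. Every lesion library was above every contralateral library of its day. The log2 differences were 0.57 ± 0.08 (adjusted p = 5.34e-05), 0.58 ± 0.08 (2.88e-05) and 0.56 ± 0.08 (0.000129) at days 7, 14 and 30. The lesion means of 129 ± 8.56, 129 ± 19.0 and 130 ± 2.92 CPM overlapped from day to day, as did the contralateral means of 86.8 ± 4.21, 86.2 ± 3.26 and 88.5 ± 5.62 CPM. The difference of the lesion effect between day 30 and day 7 was -0.01 ± 0.11, with a 95% interval of -0.25 to 0.22. Exons of Csf1r share 873 bases with Hmgxb3 on the other strand, and which strand setting the counting used is not given in the sources used here. This overlap is from GENCODE M21, with 5774 exon bases of Csf1r, while the counting used M7. The deposited length is 4885 bases, so the overlap in the counted annotation can differ. Of the distinct 50-base stretches of Csf1r transcripts, 14.3% also occur in 1 other gene. Hmgxb3 itself had lesion differences of -0.02, -0.14 and 0.03 (adjusted p = 1, 0.304 and 0.961).

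In a tissue block, more cells of a type and more RNA per cell cannot be told apart, and Csf1r moved with the other microglial transcripts. Over all tested genes edgeR called 1.56%, 2.58% and 1.04% higher in the lesion pons at days 7, 14 and 30. Of 15 microglia markers it called 12, 10 and 10 higher on these days, with none at 0. DESeq2 called 13, 12 and 10 of these markers higher, and limma-voom 10, 11 and 7. Their summed CPM ran from 397 to 473 in lesion libraries, against 263 to 314 in contralateral ones and 289 to 301 at day 0. Csf1r was 29.6% ± 0.627 of this sum in the lesion pons and 30.9% ± 0.399 in the contralateral pons at day 7, 29.4% ± 2.79 against 31.5% ± 1.33 at day 14, and 31.4% ± 1.46 against 30.4% ± 1.81 at day 30. At day 0 it was 33.6% ± 1.85. The lesion percentages were all below the contralateral ones at day 7 and overlapped them at days 14 and 30. Csf1, Csf1r, Csf2rb and Csf3r are not among the 15 markers, so such percentages are ratios to the sum and not parts of it.

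Csf1 taken over the same sum was 16.4% ± 0.453 in the lesion pons against 15.05% ± 0.747 in the contralateral pons at day 7, 15.8% ± 1.08 against 15.97% ± 0.920 at day 14, and 13.8% ± 0.469 against 15.9% ± 0.303 at day 30. All 3 lesion libraries were above the contralateral ones at day 7 and below them at day 30, and the sides overlapped at day 14. Which cells made the Csf1 transcript was not measured. While 1.56%, 2.58% and 1.04% of all tested genes were called higher at days 7, 14 and 30, markers of axotomised neurons moved with Csf1 as well. Of these 10 markers, 9, 9 and 6 were called higher. Their summed CPM was 1197 to 1552, 1276 to 1534 and 696 to 826 in the lesion pons of those days, against 512 to 639 in the contralateral pons, and Stmn4 was the most abundant (242 to 372 CPM). The part of either cell type in the Csf1 difference was not tested.

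**Figure D4:**
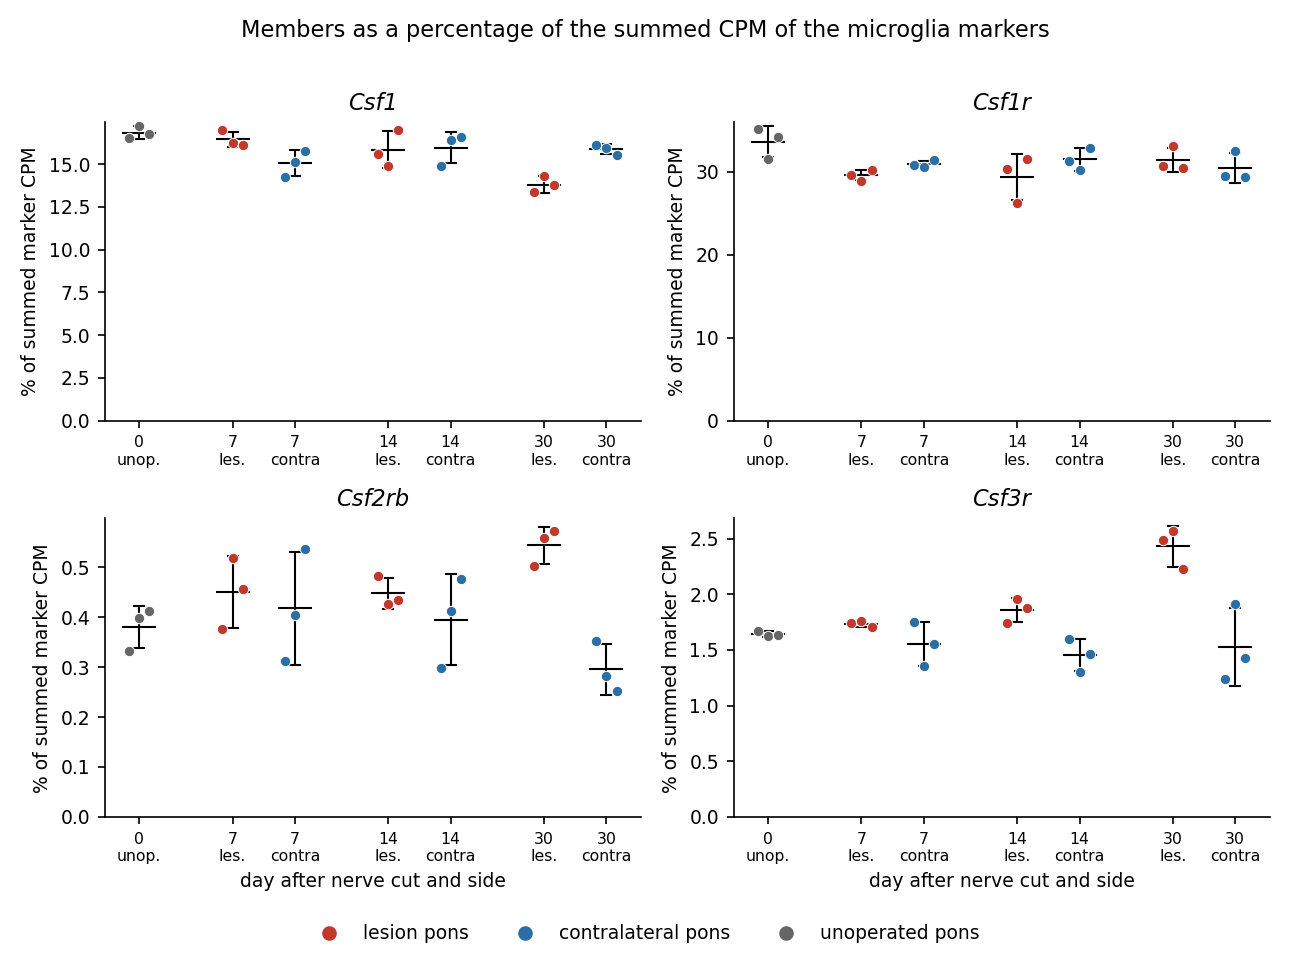
Csf1, Csf1r, Csf2rb and Csf3r as a percentage of the summed CPM of 15 microglia markers (vertical axes from 0), by day and side; points are libraries, black bars the mean and SD of 3. At day 30 Csf3r stands at 2.43% in the lesion pons and 1.53% in the contralateral pons, while Csf1r stands at 31.4% and 30.4%.

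The plot of members over microglia markers separates the receptors: at day 30 the sides of Csf1r overlap, while Csf3r and Csf2rb are higher in all 3 lesion libraries.

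Csf3r encodes the G-CSF receptor (chr4:126024550-126044440, plus strand). It had 8.02, 7.96 and 6.77 CPM in the lesion pons at day 7, against 5.18, 3.84 and 4.09 CPM in the contralateral pons. At day 14 it had 8.25, 8.04 and 8.13 CPM against 4.21, 3.79 and 3.93 CPM, and at day 30 it had 10.7, 10.3 and 9.28 CPM against 3.90, 5.35 and 3.99 CPM. The sides were apart on all 3 days. The log2 differences were 0.79 ± 0.13 (adjusted p = 0.000407), 1.03 ± 0.13 (6.38e-06) and 1.20 ± 0.13 (1.94e-06) at days 7, 14 and 30. Csf3r was the only member whose 3 lesion groups did not overlap each other, at 7.58 ± 0.709, 8.14 ± 0.106 and 10.1 ± 0.728 CPM. The share of all tested genes with such a separation was not counted. Days 7 and 14 were barely apart, with 8.02 and 8.04 CPM in their closest lesion libraries. Day 0 followed at 4.87 ± 0.163 CPM, then the contralateral pons at days 30, 7 and 14 (4.41 ± 0.810, 4.37 ± 0.717 and 3.98 ± 0.213 CPM), with each neighbour overlapping the next from day 0 on. The difference of its lesion effect between day 30 and day 7, 0.41 ± 0.18, was not called (adjusted p = 0.999).

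Over the microglia marker sum, Csf3r was 1.74% ± 0.0286 in the lesion pons against 1.55% ± 0.1995 in the contralateral pons at day 7, 1.86% ± 0.107 against 1.45% ± 0.146 at day 14, and 2.43% ± 0.180 against 1.53% ± 0.347 at day 30, with 1.64% ± 0.0240 at day 0. The sides overlapped at day 7 and were apart at days 14 and 30. Neutrophil markers were near the floor: their sum over 12 genes was 0.875 to 4.04 CPM in lesion libraries and 1.05 to 5.64 CPM in contralateral ones. The most abundant, S100a9, reached 1.44 CPM, and Cxcr1 was at 0 in every group. Of the 7 neutrophil markers tested, 0 were called on any day by edgeR, DESeq2 or limma-voom, and 0 had an unadjusted p under 0.05. Of 3676 distinct 50-base stretches in the Csf3r transcripts, 10.7% also occur in other genes, so reads from them could be counted elsewhere or not at all.

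The start of Csf3r is shown because Csf3r and Spi1 were both called higher in the lesion pons at days 7 and 14. At day 30 Csf3r was called and Spi1 was not. The product of Spi1, PU.1, is a myeloid transcription factor that binds a GAGGAA core, the PU box. Whether Csf3r depends on Spi1 was not tested. The 250 bases before the RefSeq start (GRCm38.p6, chr4:126024409-126024658, plus strand) hold 1 match, in capitals, which begins 86 bases before that start. GENCODE starts the gene farther upstream, so the end of this window, with the match, lies inside the gene as GENCODE annotates it.
Csf3r promoter: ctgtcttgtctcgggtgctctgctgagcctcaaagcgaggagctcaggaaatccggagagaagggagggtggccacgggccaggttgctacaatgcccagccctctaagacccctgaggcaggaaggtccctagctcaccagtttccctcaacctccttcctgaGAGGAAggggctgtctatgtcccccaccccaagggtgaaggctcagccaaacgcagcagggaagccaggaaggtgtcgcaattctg
The same search, on both strands, covered AP-1 (TGACTCA), CRE (TGACGTCA) and a STAT motif (TTCNNNGAA), which had no match there. The window before Csf1, the ligand gene with the largest lesion difference, held none of these 4 motifs (chr3:107760470-107760719, minus strand).
Csf1 promoter: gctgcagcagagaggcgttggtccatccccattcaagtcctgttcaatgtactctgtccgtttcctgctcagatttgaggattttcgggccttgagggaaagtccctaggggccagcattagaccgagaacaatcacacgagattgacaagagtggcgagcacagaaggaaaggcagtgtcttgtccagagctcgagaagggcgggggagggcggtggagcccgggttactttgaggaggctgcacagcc
Of 32851 such windows in the RefSeq table, 23.3% hold the PU box, 4.46% the AP-1, 1.55% the CRE and 7.02% the STAT motif. Windows were found for 3 of the 6 members. The third, Csf2ra, holds 1 CRE and 2 PU boxes, and its end also reaches into the gene as GENCODE annotates it. A match is a run of letters and not a measured binding site.

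Csf2ra encodes the GM-CSF binding subunit (chr19:61223957-61228429, minus strand). It had 12.4, 13.8 and 12.4 CPM in the lesion pons at day 7, against 10.98, 10.7 and 12.7 CPM in the contralateral pons. At day 14 it had 11.7, 9.34 and 12.3 CPM against 12.9, 12.0 and 11.01 CPM, and at day 30 it had 15.02, 15.4 and 11.9 CPM against 12.9, 13.8 and 12.5 CPM. The sides overlapped on all 3 days. The log2 differences were 0.17 ± 0.11, -0.11 ± 0.11 and 0.11 ± 0.11 (adjusted p = 0.913, 0.664 and 0.891). Their 95% intervals were -0.06 to 0.40, -0.34 to 0.12 and -0.11 to 0.34. Every neighbouring pair in the order of its 7 group means overlapped, from 14.1 ± 1.96 CPM (day 30 lesion) to 11.1 ± 1.59 CPM (day 14 lesion).

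Csf2rb encodes the signalling subunit shared with the receptors for IL-3 and IL-5 (chr15:78325752-78353847, plus strand), and it was the lowest member, with 14 to 64 counts in a library. It had 1.73, 2.34 and 1.81 CPM in the lesion pons at day 7, against 0.924, 1.15 and 1.41 CPM in the contralateral pons. At day 14 it had 2.28, 1.75 and 1.88 CPM against 0.783, 1.19 and 1.28 CPM, and at day 30 it had 2.15, 2.23 and 2.38 CPM against 1.11, 0.788 and 0.705 CPM. No lesion library fell within the contralateral range of its day. The log2 differences were 0.75 ± 0.23 (adjusted p = 0.132), 0.85 ± 0.23 (0.0338) and 1.37 ± 0.23 (0.00096) at days 7, 14 and 30. The day 14 call was lost in a fit on the compared pair alone (adjusted p = 0.113), without any lesion replicate 1, 2 or 3 (0.0613, 0.0534 and 0.061) and without contralateral replicate 1 or 2 (0.154 and 0.0764). The day 30 call was lost where an absolute log2 difference of at least 1.7 was also required, and held under the other alternatives run.

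In the order of the 7 group means Csf2rb ran from 2.25 ± 0.116 CPM (day 30 lesion) through day 14 lesion (1.97 ± 0.275) and day 7 lesion (1.96 ± 0.331) to the contralateral pons at day 7 (1.16 ± 0.244), day 0 (1.13 ± 0.123) and the contralateral pons at days 14 and 30 (1.09 ± 0.265 and 0.867 ± 0.213). The single step without overlap was between the day 7 lesion and day 7 contralateral groups. The difference of the lesion effect between day 30 and day 7 was 0.62 ± 0.33 (adjusted p = 0.999, 95% interval -0.06 to 1.29). As a percentage of the microglia marker sum, Csf2rb was 0.543% ± 0.0371 in the lesion pons against 0.295% ± 0.0517 in the contralateral pons at day 30, without overlap, while the sides overlapped at days 7 and 14. Between sides edgeR called 1.56%, 2.58% and 1.04% of all tested genes higher at days 7, 14 and 30. Of 9 T cell markers tested, it called 1, 1 and 3 higher, DESeq2 1, 0 and 1, and limma-voom 1, 1 and 2. The part of these markers in the Csf2rb result was not tested. Their sum was 1.51 to 5.12 CPM in lesion libraries and 1.22 to 2.13 CPM in contralateral ones, the most abundant was Lck (0.474 to 1.36 CPM), and Cd8b1 was at 0 in the contralateral pons at days 7 and 30.

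Mice have a second, near-identical gene, Csf2rb2, whose product serves the IL-3 receptor (chr15:78282507-78305721, minus strand). The coding sequences match at 2503 of 2628 aligned bases (95.2%), and their longest shared run is 242 bases. With 50-base reads, 12.3% of the distinct 50-base stretches of Csf2rb and 18.4% of those of Csf2rb2 are shared between the pair, so part of their counts is uncertain. These stretches are from GENCODE M21 transcripts, while the counting used M7. Csf2rb has 7277 exon bases in M21 and a length of 4764 bases in the deposited table, so the shared part of what was counted can differ. A stretch of 60 coding bases, from base 304 of Csf2rb and base 307 of Csf2rb2, is shown because a read across it can be placed: capitals mark the 13 bases at which the genes differ.
Csf2rb: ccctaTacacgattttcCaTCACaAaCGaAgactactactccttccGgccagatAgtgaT
Csf2rb2: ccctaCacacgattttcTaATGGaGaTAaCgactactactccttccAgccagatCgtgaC
Csf2rb2 averaged 1.69 CPM in the lesion pons and 0.779 CPM in the contralateral pons at day 7, 1.52 against 0.742 CPM at day 14 and 1.41 against 0.656 CPM at day 30. Its log2 differences were 1.10 ± 0.28, 1.04 ± 0.28 and 1.10 ± 0.29 (adjusted p = 0.0418, 0.0369 and 0.0689). Csf2rb held 53.9% ± 5.01 of the counts of the pair in the lesion pons against 60.3% ± 5.91 in the contralateral pons at day 7, and 61.9% ± 6.71 against 56.4% ± 6.51 at day 30. The sides overlapped in this percentage on both days. With both genes counted as 1, an alternative chosen after the data were seen, the day 7 difference was 0.91 and was called (adjusted p = 0.00989).

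The unoperated pons gave the level without any injury. Against it, 4 members were higher in the lesion pons at day 7 (Csf1, Csf1r, Csf2rb and Csf3r), 5 at day 14 (these and Il34) and 3 at day 30 (Csf1r, Csf2rb and Csf3r), where 8.14%, 9.78% and 12.7% of all tested genes were called higher. Csf2ra was called lower at day 14, where 7.03% of genes were. The background is larger than between sides, and here the day and age differ as well as the injury, and at days 14 and 30 the lane label does too. At day 7 the lane label is the same, but index sequences shared under that label place some libraries of day 0 and day 7 in separate runs. The sequencing run can thus differ there as well. Csf3r stood 0.64 ± 0.12, 0.74 ± 0.12 and 1.05 ± 0.12 above day 0 on the log2 scale at days 7, 14 and 30 (adjusted p = 0.000662, 6.74e-05 and 2.88e-07). Csf1r stood 0.37 ± 0.08, 0.37 ± 0.08 and 0.39 ± 0.08 above it (0.00202, 0.00141 and 0.000851). Csf1 stood 0.53 ± 0.08 and 0.48 ± 0.08 above it at days 7 and 14 (2.73e-05 and 6.83e-05), and 0.20 ± 0.08 at day 30 (adjusted p = 0.0674). That day 30 difference passed with no filter on low counts (0.03), with edgeR's own filter (0.0457) and in a fit on the compared pair alone (0.018).

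Csf2rb stood 0.80 ± 0.21, 0.79 ± 0.21 and 0.99 ± 0.20 above day 0 (adjusted p = 0.0118, 0.0085 and 0.00081). Its day 7 call was lost without day 0 replicate 1 (0.0528) or lesion replicate 2 (0.0888). The day 14 difference of Il34 (0.24 ± 0.08, adjusted p = 0.0431), whose lesion and day 0 libraries overlapped, and that of Csf2ra (-0.31 ± 0.11, adjusted p = 0.0445) were each lost in the deposited log2 matrix (0.0787 and 0.0818) and in a fit on the compared pair alone (0.174 and 0.154). Il34 also lost its call without day 0 replicate 2 or 3 (0.193 and 0.0598) or lesion replicate 2 or 3 (0.181 and 0.126). Csf2ra lost its call without any of day 0 replicates 1, 2 and 3 (0.11, 0.0985 and 0.0611), without lesion replicate 1 or 2 (0.0501 and 0.257), with DESeq2 size factors (0.0528) and with edgeR's own filter (0.052).

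In the contralateral pons 0 of 6 members were called against day 0 at days 7, 14 and 30 by edgeR, DESeq2 or limma-voom, where edgeR called 10.5%, 15.8% and 16.1% of all tested genes. Unadjusted p-values under 0.05 were found for 3, 3 and 1 of the 6. The share of all tested genes under this unadjusted rule was not counted. All 3 contralateral libraries lay below all 3 unoperated ones for 3 members at day 7, 4 at day 14 and 0 at day 30, against 13.6%, 17.1% and 17.1% of all tested genes. Csf1 was among them at days 7 and 14, with log2 differences of -0.24 ± 0.08 (adjusted p = 0.0523) and -0.19 ± 0.08 (0.118). Csf1r had -0.20 ± 0.08 and -0.21 ± 0.08 (0.124 and 0.0797). Csf1 at day 7 passed with no filter on low counts (0.0143) and in a fit on the compared pair alone (0.0444), and Csf1r passed with no filter at day 7 (0.0478), and at day 14 with no filter (0.0307) or without day 0 replicate 2 (0.0467).

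The lesion effects of different days were not told apart for any member. In the 3 interaction tests (day 14 minus 7, day 30 minus 14 and day 30 minus 7) edgeR, DESeq2 and limma-voom each called 0 of 6, and edgeR called 0%, 0.0807% and 0.0269% of all tested genes. Unadjusted p-values under 0.05 were found for 0, 2 and 2 members: Csf1 and Il34 for day 30 minus day 14, and Csf1 and Csf3r for day 30 minus day 7. How many of all tested genes had such unadjusted p-values was not counted. For Il34 the estimate for day 30 minus day 14 was -0.34 ± 0.12 (adjusted p = 0.193), which passed without day 14 lesion replicate 1 (0.0474). The estimates of Csf1 and Csf3r had opposite signs in the last of these (-0.46 and 0.41).

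Other ligands and receptors of the family were read from a list of 9 genes, of which 5 were tested. Csf2, the GM-CSF gene, had 3 counts in all 21 libraries together, Csf3, the G-CSF gene, had 6, Il5 had 36 and the receptor gene Il5ra had 1. Il3 had 0 counts, which allows up to 0.00595 CPM over the 21 libraries (3 counts of the total, counting error only). Csf2, Csf3, Il3 and Il5ra did not pass the filter and were not compared. Il5 passed it with few counts, and its lesion differences of -0.03 ± 1.05, 0.30 ± 1.10 and 0.69 ± 1.17 at days 7, 14 and 30 were not called (adjusted p = 1, 0.926 and 0.949). By edgeR 2, 2 and 1 of the 5 tested genes were called higher on these days, and at day 7 DESeq2 and limma-voom called 1. The edgeR shares over all tested genes were 1.56%, 2.58% and 1.04%. Sdc1, which encodes the heparan sulfate proteoglycan syndecan-1, reported as a binding partner of IL-34, was called higher on all 3 days. It averaged 10.9, 13.5 and 6.53 CPM in the lesion pons at days 7, 14 and 30, against 3.16, 2.36 and 2.01 CPM in the contralateral pons. The log2 differences were 1.78 ± 0.17, 2.52 ± 0.17 and 1.68 ± 0.19 (adjusted p = 8.12e-08, 1.57e-10 and 3.09e-06). Ptprz1, a receptor phosphatase of glia that binds IL-34, had -0.04, -0.20 and 0.07 (adjusted p = 1, 0.436 and 0.949), and Il3ra, the IL-3 binding subunit, had 0.15, 0.33 and -0.08 (1, 0.411 and 0.97).

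Genes that act around the receptors were called in part. Of 26 genes of CSF1R signalling, edgeR called 5, 7 and 5 higher in the lesion pons at days 7, 14 and 30 and 0 lower. Over all tested genes it called 1.56%, 2.58% and 1.04% higher. The medians of the list were 0.21, 0.17 and 0.22, against -0.01, 0.00 and 0.00 for all tested genes. At day 14 DESeq2 called 2 of these 26 genes lower and limma-voom 1. Tyrobp, which encodes the adaptor DAP12, stood at 28.7, 25.2 and 30.6 CPM in the lesion pons and 17.4, 15.1 and 19.7 CPM in the contralateral pons, with log2 differences of 0.73, 0.74 and 0.64 (adjusted p = 2.79e-05, 1.8e-05 and 0.00024). Inpp5d, the lipid phosphatase SHIP1, had 0.54 at day 7 and 0.70 at day 30 (0.0113 and 0.00102). Ptpn6, the phosphatase SHP-1, had 1.00 at day 7 (0.00631), and Vav1, a guanine nucleotide exchange factor of blood cells, 0.83 at day 30 (0.0083). Mapk3, the kinase ERK1 present in most cells, had 0.36 at day 14 (0.00237). Those named were called on days on which edgeR also called most microglia markers given above higher, and at least 1 T cell marker. Which cells expressed these genes was not measured, and their dependence on the number of microglia or of other cells was not tested.

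Of 14 genes of JAK-STAT signalling, 3, 3 and 2 were higher and 0 lower at days 7, 14 and 30 by edgeR, DESeq2 and limma-voom alike, with medians of 0.19, 0.23 and 0.12. Of all tested genes edgeR called 1.56%, 2.58% and 1.04% higher, with medians of -0.01, 0.00 and 0.00. Socs3, a feedback inhibitor of CSF3R and of IL-6 type receptors, averaged 4.54, 4.72 and 3.00 CPM in the lesion pons and 1.68, 1.39 and 1.25 CPM in the contralateral pons. Its log2 differences were 1.43 ± 0.23, 1.76 ± 0.23 and 1.25 ± 0.24 (adjusted p = 0.000219, 9.72e-06 and 0.00388). Stat3 had 0.37 and 0.31 at days 7 and 14 (0.000227 and 0.00155), and Stat5b had 0.33 and 0.36 (0.00671 and 0.00223).

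**Figure D5:**
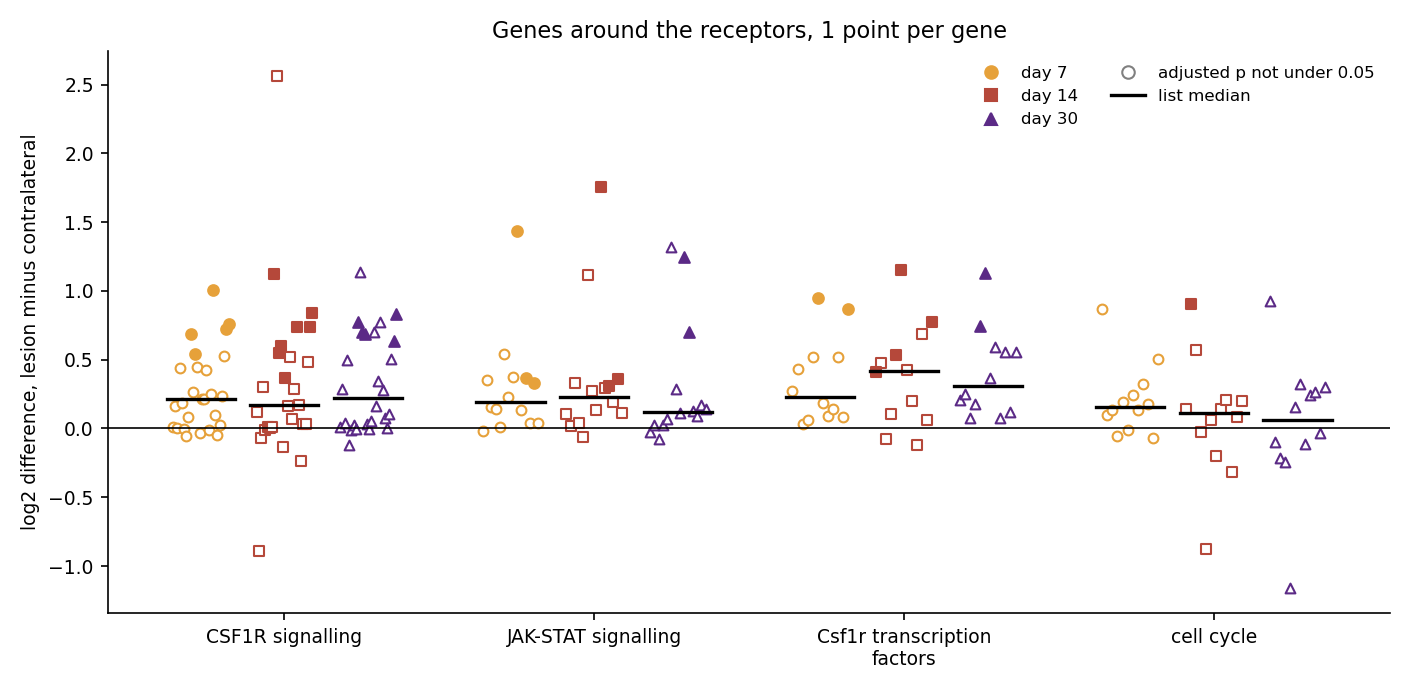
Log2 difference (vertical axis), lesion minus contralateral pons, of each tested gene in 4 lists around the receptors, at days 7, 14 and 30; filled symbols passed the adjusted p of 0.05 in edgeR's test, and black lines are list medians. All filled symbols lie above 0, and 1 of 12 cell cycle genes is filled, at day 14.

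The plot of genes around the receptors includes 12 transcription factors known to act on Csf1r, of which edgeR called 2, 4 and 2 higher and 0 lower at days 7, 14 and 30, with medians of 0.23, 0.42 and 0.31. At day 14 limma-voom called 2 of them higher. For all tested genes the edgeR shares called higher were 1.56%, 2.58% and 1.04%, with medians of -0.01, 0.00 and 0.00. Irf8, a factor that microglia need, had 0.95 ± 0.19, 1.15 ± 0.19 and 1.13 ± 0.18 (adjusted p = 0.00403, 0.000313 and 0.000583). Spi1, the gene of PU.1, had 0.87 and 0.78 at days 7 and 14 (0.00479 and 0.00945). Ikzf1, a lymphoid and myeloid factor, had 0.54 and 0.75 at days 14 and 30 (0.0477 and 0.00646). Of 12 cell cycle genes, 0, 1 and 0 were called by edgeR, DESeq2 and limma-voom alike at days 7, 14 and 30, with 1, 2 and 1 at an unadjusted p under 0.05. The called gene, Birc5, which encodes survivin, had 0.90 at day 14 (0.0175).

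Genes with the most similar profile were found by Pearson's r of log2 CPM over the 21 libraries, among 13560 named genes with a mean of at least 1 CPM. These values describe libraries that share the contrast between sides, and no test is attached. Nearest to Csf1r were C1qc (0.954), Laptm5 (0.952), Inpp5d (0.949), Itgb2 (0.946) and Fcer1g (0.945). Nearest to Csf3r were Myo1f (0.952), C1qa (0.947), and Nckap1l, Hmha1 and Mpeg1 (0.944 each). Nearest to Csf2rb were Cd52 (0.900), Ccl5 (0.893), Lyn (0.887), C1qc (0.885) and Tnfrsf1b (0.880). Csf1 was nearest to Uck2 (0.950), Myadm (0.944), Sbno2 (0.939), Stat3 (0.938) and Itgam (0.937). For Il34 the nearest were Ppih (0.781), Tbcd (0.780), Smim3 (0.760), Gadd45g (0.752) and Carhsp1 (0.748), and for Csf2ra they included Mfsd10 (0.774), Hps1 (0.770), and Arhgap19 and Arhgef1 (0.747 each). The values given for Il34 and Csf2ra are lower than those of the other 4 members.

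Among the members themselves r was 0.918 between Csf1 and Csf1r, 0.917 between Csf1r and Csf3r, and 0.774 between Csf1 and Csf3r. Csf2rb had 0.860 with Csf1r, 0.823 with Csf3r and 0.796 with Csf1. Il34 had 0.419 to 0.579 with these 4 genes, and Csf2ra had 0.0463 to 0.207 with them and -0.242 with Il34.

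Other cell types of the block were read from marker lists. Of 10 monocyte and border macrophage markers, which also use CSF1R, 0 were called on any day by edgeR, DESeq2 or limma-voom, with 1 at an unadjusted p under 0.05 on each day. Their sum was 15.9 to 29.8 CPM in lesion libraries and 13.2 to 27.3 CPM in contralateral ones, with F13a1 the most abundant (3.08 to 7.32 CPM). Of the oligodendrocyte and endothelial lists, each of 8 genes, 0 were called by any of the 3 tools and 0 had an unadjusted p under 0.05. Of 8 astrocyte markers edgeR and limma-voom called 0 and DESeq2 called 1, at day 14, with 0, 2 and 2 at an unadjusted p under 0.05 on days 7, 14 and 30. Over all tested genes edgeR called 0.0942%, 1.31% and 0.121% lower at days 7, 14 and 30. Of 8 motor neuron markers it called 1, 4 and 2 lower on these days, DESeq2 3, 5 and 4, and limma-voom 3, 5 and 3. On these days edgeR called 0, 1 and 1 of them higher, and DESeq2 and limma-voom each called 1, 1 and 1. Of 9 choroid plexus markers edgeR called 0 on each day and DESeq2 called 3 higher at day 7, where all 9 had an unadjusted p under 0.05. Without day 7 lesion replicate 3, the library with the high Ttr, 3 members were called at day 7, as with it.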

How the data were processed

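Messenger RNA of ventral pons was sequenced as 50-base single reads from 300 ng of RNA per library with a stranded kit, per the labels' protocols. The authors aligned reads with Rsubread to GRCm38.p4 with GENCODE M7 and counted them with featureCounts, per the series' design text and the submitters' processing notes, which also name CASAVA 1.8.2 and limma. The deposited count table gives raw counts per gene symbol and gene lengths. The deposited log2 matrix holds log2 CPM, per the file headers and values, and served as an alternative. Both were deposited by the authors. All per-sample columns were used.

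Genes whose summed count exceeded the 32nd percentile of genes with a count were kept, as in the authors' design. All 21 libraries entered 1 fit in edgeR 4.0.16 (R 4.3.3), with a coefficient for each group, TMM scaling and the robust quasi-likelihood test, which gave log2 differences, standard errors and two-sided p-values, adjusted by Benjamini-Hochberg over all tested genes. CPM and RPKM used library totals multiplied by the TMM factors. limma 3.58.1 and DESeq2 1.42.0 were alternatives. Shares of all tested genes with an unadjusted p under 0.05 were not counted, neither for the members nor for the gene lists. The script was tested on simulated data. Counting error falls as counts rise, so Csf2rb is the least precise member. The members, lists, tests and rules for named genes were chosen with earlier results of these data known. Named genes were the members, the other family genes, the up to 3 called genes per pathway list and day with the smallest adjusted p, the 5 nearest profiles of each member, and markers. Some genes that this rule names are not reported here. Hmgxb3 was added for its overlap with Csf1r. Positions are from GENCODE M21 (GRCm38), promoters from RefSeq (GRCm38.p6).

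Lesion and contralateral libraries of a day share replicate numbers. After group means were removed, libraries with the same number correlated at 0.27, 0.24 and 0.17 across genes at day 7 and at 0.21, 0.21 and 0.19 at day 30, but at 0.27, -0.0034 and 0.17 at day 14. The main tests used no pairing. The alternative with the replicate number as a block paired libraries at days 7, 14 and 30, thus also at day 14, where not all equal numbers correlated. The labels do not say that equal numbers mark 1 animal.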

Additional observations from a re-analysis of the deposited data

How the results depend on the processing

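For the 6 members in 12 comparisons, 1124 alternative log2 differences were computed, and 1051 kept their direction and their side of the threshold, 30 lost a call, 15 gained one and 28 changed sign. With an absolute log2 difference of at least 1.7 also required, which is the authors' second threshold, 0 members were called in each of the 6 comparisons of a lesion group. At day 14, lesion against contralateral, 3 members were called in a fit on the compared pair alone, and 3 to 4 when single libraries were left out, against 5. Such omissions gave 3 to 3 members at day 7, 3 to 4 at day 30, and 3 to 4, 4 to 5 and 3 to 3 for lesion against unoperated pons at days 7, 14 and 30. Contralateral against unoperated pons gave 2 members with no filter on low counts and 1 in a fit on the compared pair alone at day 7, and 1 with no filter and 0 to 1 in the omissions at day 14. The lesion effect gave 0 to 1 for day 30 minus day 14 in the omissions, and 1 with no filter for day 30 minus day 7.

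All 28 changes of sign came from leaving out 1 library, in 12 results none of which was called. Their ranges were -0.19 to 0.0090 for Csf2ra and -0.066 to 0.012 for Il34 (lesion against contralateral pons, days 14 and 30), and -0.029 to 0.14 for Csf2ra in lesion against unoperated pons at day 30. Against the unoperated pons, the contralateral range was -0.032 to 0.075 (Il34) and -0.12 to 0.18 (Csf2rb) at day 7, and -0.12 to 0.0052 (Il34) and -0.19 to 0.13 (Csf2rb) at day 14. For the lesion effect, day 14 minus day 7 ranged from -0.069 to 0.13 (Csf1r) and -0.089 to 0.23 (Csf2rb), day 30 minus day 14 from -0.14 to 0.057 (Csf1r), and day 30 minus day 7 from -0.065 to 0.029 (Csf1r) and -0.14 to 0.0497 (Csf2ra). The cause of these changes was not tested.

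With the replicate number as a block, 3, 5 and 3 members were called at days 7, 14 and 30, and no member's call changed in any of the 12 comparisons. Csf1 at day 30 had an adjusted p of 0.0619 and Csf2rb at day 7 of 0.205. The block moved the count of called genes to 388, 1009 and 314, against 368, 866 and 259. The fit on the compared pair alone gave 435 at day 14 and 569 at day 30. Where leaving out a library changed the call of a named member, the value stands beside that result. With 3 libraries a group and 14 to 64 counts of Csf2rb in each, differences of that gene smaller than its intervals were not detectable at this depth.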
